A study of Homo sapiens with 8 samples.

Results

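The 9 genes described here are NFE2L2, which encodes the transcription factor NRF2, KEAP1, and the NRF2 targets NQO1, HMOX1, TXNRD1, SRXN1, AKR1C1, AKR1C2 and AKR1B10. They were chosen by name as the core of the oxidative stress response, and each was matched by its Ensembl identifier among 63241 identifiers in the deposited values. All 9 passed the filter on low values, which kept the 15173 genes with at least 2 libraries at an FPKM of 1 or more. Expression was measured by sequencing of polyadenylated RNA in HepG2 and Huh7, established human liver cancer cell lines. WT cells of each line carry the label control. SR cells of each line are resistant to sorafenib, a multikinase inhibitor, were made by stepwise exposure to rising concentrations of it, and carry the label sorafenib. WT and SR cells of HepG2 and of Huh7 make 4 groups of 2 libraries each, 8 in all, and all 8 carry the same batch label. The labels do not say whether the 2 libraries of a group came from separate cultures, nor whether an SR line is 1 clone or a mixed population, so p-values measure the spread between these libraries, which may be technical. In bulk RNA, fewer cells with a transcript and less of it per cell cannot be told apart.

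The libraries did not group by labelled cell line, and this touches every comparison. Across 15173 genes, the 5 libraries HepG2 WT 1 and 2, HepG2 SR 1, and replicate 2 of both Huh7 groups had a Pearson's r of log2(FPKM + 1) between 0.914 and 0.977 with one another. Huh7 WT 1 correlated with Huh7 SR 1 at 0.965, and both correlated with those 5 at 0.731 to 0.783, and HepG2 SR 2 stood apart, at 0.775 to 0.819 with the 5 and 0.815 to 0.846 with the other two. The labels were kept, and results are given with all 8 libraries and with those 5 of like expression. All 10 hepatocyte markers reached an FPKM of at least 1 in both libraries of HepG2 WT and of HepG2 SR, and in Huh7 the number was 8 in WT and 9 in SR. The summed FPKM of these markers was 5508 to 7750 in WT and 7998 to 8065 in SR cells of HepG2, and 734 to 2082 in WT and 1193 to 7739 in SR cells of Huh7. Of 5 leukocyte markers, PTPRC and CD3E stayed at or under 0.0415 FPKM. CD14 ranged from 0.0575 to 6.27 and CD68 from 3.94 to 29.1. LYZ, at 44.2 to 1058, was the highest of the 5 in each library. The summed level of the 5 was 245 to 293 in WT and 830 to 906 in SR cells of HepG2. In Huh7 it was 61.3 to 73.3 in WT and 83.6 to 1065 in SR cells. The 5 fibroblast markers summed to at most 8.66 FPKM and the 4 endothelial markers to at most 4.52.

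NRF2 is the main transcription factor of the response to electrophiles and oxidants. In unstressed cells KEAP1, the substrate adaptor of a CUL3 ubiquitin ligase, binds NRF2 and directs it to the proteasome. Oxidants or electrophiles modify cysteines of KEAP1, NRF2 then accumulates, pairs with small MAF proteins and binds antioxidant response elements of its targets, which include quinone, heme, thioredoxin and carbonyl metabolism genes. The pathway is set largely by the stability of the NRF2 protein, so transcript levels of NFE2L2 do not measure its activity. In liver cancer the pathway is known for mutations in NFE2L2 and KEAP1 and for its link to drug resistance and to ferroptosis.

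AKR1C1 and AKR1C2 are neighbouring genes with nearly the same promoter, which is shown because their levels rest on sequences that are hard to tell apart. By GENCODE 29 (GRCh38), AKR1C1 lies at chr10:4963253-4983283 on the plus strand and AKR1C2 at chr10:4987400-5018031 on the minus strand. The 300-base windows below are from RefSeq (GRCh38.p14), run 5′ to 3′ from 250 bases before each start to 50 after it, and lie at chr10:4963165-4963464 (plus strand) and chr10:5003808-5004107 (minus strand). Over the stretch where both windows aligned there were 288 identical and 4 mismatched bases, and AKR1C1 had 4 bases without a partner inside it. Capitals mark these mismatched and unpartnered bases. The first 4 bases of the AKR1C1 window and the last 8 of the AKR1C2 window lie outside the other window and stay in lower case.
AKR1C1: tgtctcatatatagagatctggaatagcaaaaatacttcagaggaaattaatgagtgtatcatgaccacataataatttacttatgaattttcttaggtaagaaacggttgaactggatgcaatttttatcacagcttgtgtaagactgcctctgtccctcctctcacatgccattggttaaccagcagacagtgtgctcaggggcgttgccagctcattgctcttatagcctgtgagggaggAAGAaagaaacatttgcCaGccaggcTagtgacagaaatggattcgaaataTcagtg
AKR1C2: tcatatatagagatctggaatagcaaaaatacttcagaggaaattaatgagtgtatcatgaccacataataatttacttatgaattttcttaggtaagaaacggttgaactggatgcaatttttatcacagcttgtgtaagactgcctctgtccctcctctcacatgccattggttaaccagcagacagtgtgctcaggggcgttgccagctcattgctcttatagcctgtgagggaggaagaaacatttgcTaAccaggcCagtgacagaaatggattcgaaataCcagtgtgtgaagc

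The likeness extends to the transcripts. Of all 50-base words in the annotated transcripts of AKR1C1, 28.6% also occurred in another gene, 28.3% in AKR1C2. For AKR1C2 the share was 38.9%, with 38.1% in AKR1C1. How the authors assigned reads that fit both genes is not given in the sources used here, so the split of signal between AKR1C1 and AKR1C2 is uncertain. AKR1B10 shared 14.6% of its words with other genes, 9.70% with AKR1B15 and 5.99% with AKR1B10P1, and its level is uncertain to that extent. SRXN1 overlaps AL121758.1 on the same strand over 85.0% of its exonic bases, and AL121758.1 stood at 0.0178 to 0.489 FPKM. NFE2L2 overlaps AC019080.1 on the same strand over 17.6% of its exonic bases, where AC019080.1 stood at 1.56 to 14.1 FPKM. NQO1 shares 17.7% of its exonic bases with AC092115.2 on the opposite strand, which was listed at 0 in all 8 libraries. Counting is not stated to use strand, so reads from these overlaps cannot be assigned with certainty. KEAP1 and TXNRD1 shared no 50-base word with another gene, and HMOX1 shared 0.458% of its words.

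Antioxidant response elements hold the core TGACNNNGC, which was searched on both strands in the same kind of window for 7 of the 9 genes. RefSeq windows were used for NFE2L2, KEAP1, NQO1, TXNRD1, SRXN1, AKR1C1 and AKR1C2, and none for HMOX1 and AKR1B10. The core occurred in 3 of the 10 windows of these genes, against 13.3% of all 35116 windows. It was found in 1 of the KEAP1 windows and in both TXNRD1 windows, and not in those of the other 5 genes. Sequence outside the windows was not searched, so a gene without a match here may carry the core elsewhere. By gene that is 2 of 7, and of 22 other NRF2 targets with a window 8 held it, against 16.1% of all genes with a window. The 3 windows are shown because these genes carry the core near an annotated start, with the core in capitals on whichever strand it was read. The KEAP1 window is chr19:10502722-10503021 (minus strand), and the TXNRD1 windows, for 2 alternative starts, are chr12:104215529-104215828 and chr12:104286782-104287081 (plus strand). Such matches are short and describe letters, not binding.
KEAP1: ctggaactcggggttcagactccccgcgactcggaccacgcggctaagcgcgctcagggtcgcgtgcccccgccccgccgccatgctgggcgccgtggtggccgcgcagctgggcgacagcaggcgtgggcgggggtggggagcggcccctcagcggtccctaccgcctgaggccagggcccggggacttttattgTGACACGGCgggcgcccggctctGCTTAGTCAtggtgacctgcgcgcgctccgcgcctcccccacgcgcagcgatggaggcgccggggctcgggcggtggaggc
TXNRD1 first start: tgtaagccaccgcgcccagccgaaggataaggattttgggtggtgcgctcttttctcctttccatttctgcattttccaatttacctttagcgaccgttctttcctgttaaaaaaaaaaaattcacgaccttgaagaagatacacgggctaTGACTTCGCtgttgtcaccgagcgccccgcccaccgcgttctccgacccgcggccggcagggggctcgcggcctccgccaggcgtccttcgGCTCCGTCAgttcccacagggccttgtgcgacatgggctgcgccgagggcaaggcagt
TXNRD1 second start: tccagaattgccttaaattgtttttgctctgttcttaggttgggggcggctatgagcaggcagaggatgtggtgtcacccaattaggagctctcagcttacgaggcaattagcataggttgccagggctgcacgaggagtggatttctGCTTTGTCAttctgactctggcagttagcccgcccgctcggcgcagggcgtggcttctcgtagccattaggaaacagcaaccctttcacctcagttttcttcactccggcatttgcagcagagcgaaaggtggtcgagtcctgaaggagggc

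FPKM is scaled by transcript length, so the levels of the 9 genes can be set side by side. By median FPKM over the 8 libraries, NQO1 stood first at 143, followed by AKR1C2 at 108, AKR1C1 at 96.4, TXNRD1 at 95.7, NFE2L2 at 70.0, SRXN1 at 45.4, AKR1B10 at 29.3, KEAP1 at 22.6 and HMOX1 at 18.6. The ranges of all neighbours in this order overlapped. The order also changed between libraries, and each of NQO1, AKR1C1, NFE2L2 and TXNRD1 was the highest of the 9 in at least 1 of them. From the lowest to the highest library, log2(FPKM + 1) spanned 1.38 for NFE2L2, 1.42 for KEAP1 and 1.84 for TXNRD1. The span was 2.47 for SRXN1, 2.61 for HMOX1 and 2.65 for AKR1C2. It reached 5.10 for AKR1C1, 7.16 for AKR1B10 and 7.96 for NQO1. The regulators thus varied least and the reductases NQO1, AKR1B10 and AKR1C1 most.

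**Figure D1:**
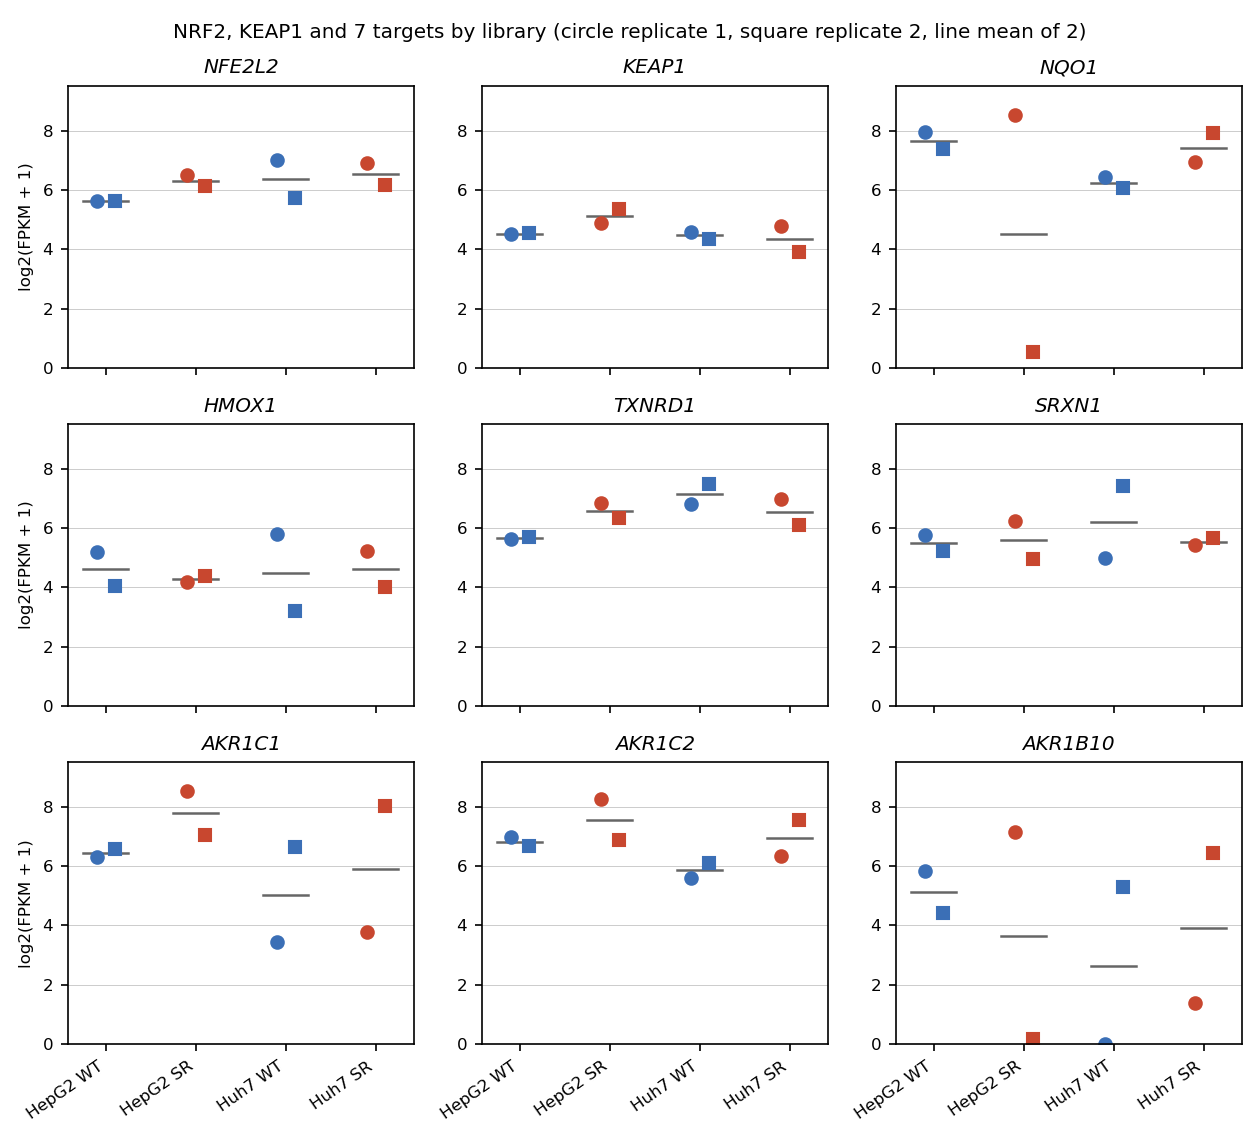
Expression of the 9 genes as log2(FPKM + 1) on the vertical axis, by group on the horizontal axis. Circles are replicate 1, squares replicate 2, blue WT, red SR, and grey lines the mean of the 2 libraries. NQO1 and AKR1B10 fell to 0.460 and 0.117 FPKM in HepG2 SR 2, while NFE2L2 and KEAP1 stayed within a narrow band.

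NFE2L2 lies at chr2:177227595-177392697 on the minus strand. Its FPKM was 48.9 and 48.5 in HepG2 WT and 89.0 and 69.6 in HepG2 SR, and 128 and 52.0 in Huh7 WT against 120 and 70.3 in Huh7 SR. Both HepG2 SR libraries lay above both HepG2 WT libraries, whereas the Huh7 groups overlapped and the 2 Huh7 replicates labelled 1 were the highest of all. On the log2 scale of FPKM + 1, used for all fold changes below, the difference between SR and WT was 0.68 ± 0.50 (SE, n = 2 per group) in HepG2, with an adjusted p of 0.956 from limma. In Huh7 it was 0.17 ± 0.50, with an adjusted p of 0.99996. Neither difference passed the test.

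The adaptor gene KEAP1 (chr19:10486120-10503741, minus strand) was the steadiest gene in WT cells. Its FPKM was 22.0 and 22.2 in HepG2 WT and 28.6 and 39.5 in HepG2 SR, and 22.9 and 19.4 in Huh7 WT against 26.4 and 14.2 in Huh7 SR. HepG2 SR again lay above HepG2 WT without overlap, and in Huh7 the 2 SR libraries enclosed the WT libraries. SR minus WT was 0.59 ± 0.39 in HepG2 and -0.12 ± 0.39 in Huh7 (adjusted p from limma 0.956 and 0.99996), neither past the test. NFE2L2 and KEAP1 were therefore both higher in each HepG2 SR library than in each HepG2 WT library.

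NQO1, the quinone reductase widely used as a readout of NRF2, lies at chr16:69706996-69726951 on the minus strand. Its FPKM was 245 and 165 in HepG2 WT and 363 and 0.460 in HepG2 SR, and 84.6 and 66.4 in Huh7 WT against 122 and 239 in Huh7 SR. HepG2 SR held both the highest and the lowest library of the 8, and in Huh7 both SR libraries lay above both WT libraries. SR minus WT came to -3.13 ± 2.19 in HepG2 (adjusted p 0.956, limma) and 1.18 ± 2.19 in Huh7 (adjusted p 0.99996, limma). The HepG2 value rested on a single library: it was 0.85 without HepG2 SR 2 and -7.11 without HepG2 SR 1. In HepG2 SR 2, GPX2, a glutathione peroxidase, stood at 13.6 FPKM and AKR1C3, a hydroxysteroid dehydrogenase, at 10.1, also their lowest values of the 8 libraries, while the level of TXNRD1 there, 79.8 FPKM, lay within the range of the other libraries.

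HMOX1, heme oxygenase 1, which breaks heme down to biliverdin, iron and carbon monoxide, lies at chr22:35380361-35394214 on the plus strand. It was at 35.2 and 15.6 FPKM in HepG2 WT and 17.1 and 20.0 in HepG2 SR, and 54.6 and 8.12 in Huh7 WT against 36.2 and 15.0 in Huh7 SR. The groups overlapped in both lines, and Huh7 WT held both the highest and the lowest value. The log2 difference was -0.33 ± 0.88 in HepG2 and 0.12 ± 0.88 in Huh7, with 95% intervals of -2.43 to 1.77 and -1.99 to 2.22, so a change of severalfold in either direction would not have been detectable.

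TXNRD1, the cytosolic thioredoxin reductase, lies at chr12:104215779-104350305 on the plus strand. Its FPKM was 48.5 and 50.5 in HepG2 WT and 114 and 79.8 in HepG2 SR, and 112 and 176 in Huh7 WT against 124 and 67.5 in Huh7 SR. HepG2 SR lay above HepG2 WT without overlap and the Huh7 groups overlapped, with the highest value in Huh7 WT 2. The log2 difference was 0.93 ± 0.43 in HepG2 and -0.61 ± 0.43 in Huh7, neither past the threshold (adjusted p 0.956 and 0.99996, limma). The difference between these effects, Huh7 minus HepG2, was -1.54 ± 0.60, which passed the study's thresholds of an unadjusted p under 0.05 and a log2 change past 0.5. The adjusted p of that difference from limma was 0.99981, and with the replicate number as a block it no longer passed (unadjusted p = 0.0538, limma).

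SRXN1, sulfiredoxin, which reduces overoxidized peroxiredoxins, lies at chr20:646615-653370 on the minus strand. It was at 52.9 and 36.0 FPKM in HepG2 WT and 73.5 and 30.0 in HepG2 SR, and 30.5 and 171 in Huh7 WT against 41.7 and 49.2 in Huh7 SR. Groups overlapped in both lines, and Huh7 WT 2 was the highest library for SRXN1 as it was for TXNRD1. Differences of SR from WT were 0.11 ± 0.81 in HepG2 and -0.67 ± 0.81 in Huh7, both within the spread between libraries.

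AKR1C1 and AKR1C2, hydroxysteroid dehydrogenases that also reduce lipid aldehydes and ketones, had higher mean levels in SR than in WT cells of both lines. AKR1C1 was at 78.8 and 93.5 FPKM in HepG2 WT and 369 and 130 in HepG2 SR, and 9.76 and 99.4 in Huh7 WT against 12.7 and 257 in Huh7 SR. HepG2 SR lay above HepG2 WT, and in Huh7 the replicates labelled 1 were low and those labelled 2 high in both WT and SR. AKR1C1 differed between SR and WT by 1.35 ± 1.52 in HepG2 and 0.86 ± 1.52 in Huh7 (adjusted p from limma 0.956 and 0.99996). With the replicate number as a block, AKR1C1 rose in HepG2 by 1.35 ± 0.51 (unadjusted p = 0.0417 and adjusted p = 0.534, limma), past the study's thresholds. The labels give that number no further meaning, and deviations of same-numbered HepG2 libraries from their group means correlated at only 0.125. Without the block, the HepG2 value was 0.60 when HepG2 SR 1 was left out and 2.09 when HepG2 SR 2 was.

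For AKR1C2 the FPKM was 124 and 101 in HepG2 WT and 305 and 116 in HepG2 SR, and 47.8 and 68.5 in Huh7 WT against 80.6 and 186 in Huh7 SR. In Huh7 both SR libraries lay above both WT libraries, and in HepG2 the groups overlapped. The AKR1C2 difference was 0.74 ± 0.59 in HepG2 and 1.08 ± 0.59 in Huh7, or 0.91 ± 0.42 averaged over both lines, with adjusted p-values from limma of 0.956, 0.99996 and 0.998. The HepG2 value for AKR1C2 was 0.05 without HepG2 SR 1 and 1.44 without HepG2 SR 2. With the replicate block AKR1C2 rose in Huh7 by 1.08 ± 0.40 (unadjusted p = 0.0369 and adjusted p = 0.921, limma). The ratio of AKR1C1 to AKR1C2 was 0.204 in Huh7 WT 1 and 0.157 in Huh7 SR 1 and lay between 0.635 and 1.45 in the other 6 libraries. By these values AKR1C1 was furthest below AKR1C2 in those 2 libraries of like expression, whatever their WT or SR status. The split of signal between the 2 genes is uncertain, as said above.

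AKR1B10, an aldo-keto reductase that reduces retinal and lipid aldehydes, lies at chr7:134527592-134541408 on the plus strand. It was at 56.0 and 20.5 FPKM in HepG2 WT and 142 and 0.117 in HepG2 SR, and 0 and 38.2 in Huh7 WT against 1.63 and 85.9 in Huh7 SR. It was near 0 in the same 3 libraries that stood apart in overall expression, and SR and WT overlapped in both lines. The log2 difference was -1.47 ± 2.78 in HepG2 and 1.27 ± 2.78 in Huh7, and without HepG2 SR 2 the HepG2 value was 2.03.

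**Figure D2:**
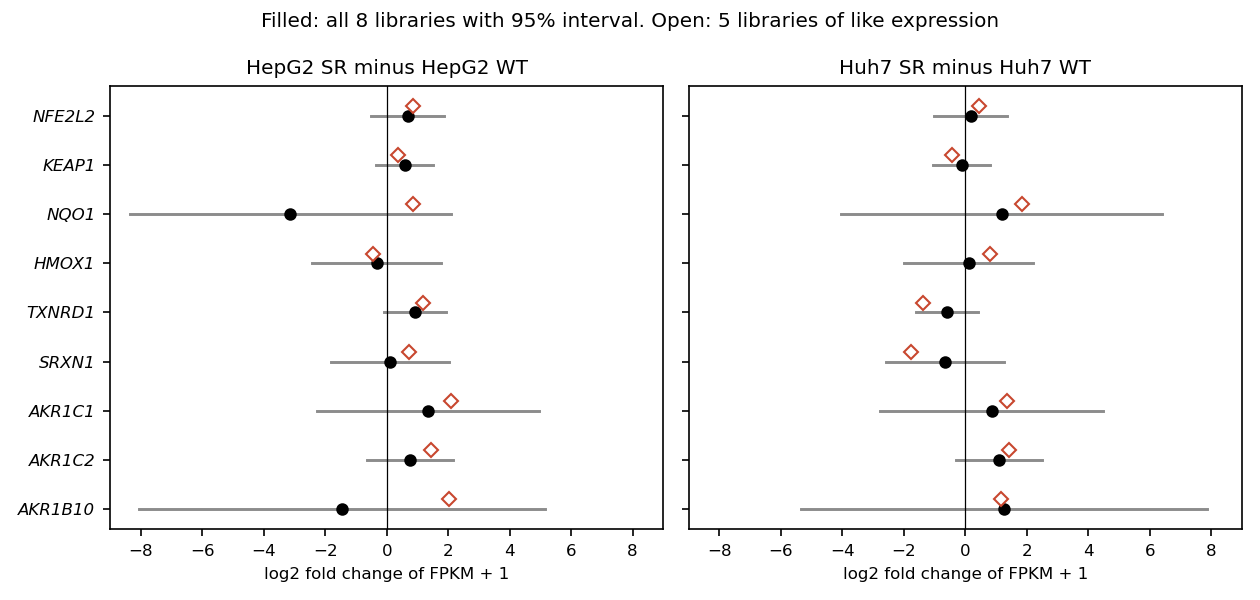
Difference between SR and WT in log2(FPKM + 1) on the horizontal axis for each gene, in HepG2 (left) and Huh7 (right). Filled points are all 8 libraries with the 95% interval from limma, and open diamonds are the 5 libraries of like expression. All 18 intervals include 0, and NQO1 and AKR1B10 in HepG2 lie below 0 with all libraries and above 0 with 5.

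Read as a list, 0 of the 9 genes passed the study's thresholds in HepG2, where 2.14% of all genes did, and 0 of 9 in Huh7, against 1.87%. Averaged over both lines it was again 0 of 9, against 3.93%, where NFE2L2 differed by 0.43 ± 0.35, NQO1 by -0.98 ± 1.55, AKR1C1 by 1.10 ± 1.08 and AKR1B10 by -0.10 ± 1.97. In the difference between the lines' SR effects 1 of 9 passed, TXNRD1, against 0.606% of all genes. At an adjusted p under 0.05, limma called 0 genes of 15173 in each of these comparisons, and 325 in HepG2, 283 in Huh7 and 597 in the average had an unadjusted p under 0.05. The difference between SR and WT was positive for 6 of 9 in HepG2, 6 of 9 in Huh7 and 5 of 9 in the average, with medians of 0.59, 0.17 and 0.16, where the medians of all genes were -0.03, -0.05 and -0.05. Both SR libraries lay above both WT libraries for 4 of 9 in HepG2 (NFE2L2, KEAP1, TXNRD1 and AKR1C1), against 18.1% of all genes, and for 2 of 9 in Huh7 (NQO1 and AKR1C2), against 9.06%.

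Replicate numbers were taken to pair the libraries because deviations of same-numbered libraries from their group means correlated, at 0.796 in Huh7 but only weakly, at 0.125, in HepG2. The labels tie the number to no culture or day. With that number as a block 1 of 9 passed in HepG2 (AKR1C1), against 9.17% of all genes, and 1 of 9 in Huh7 (AKR1C2), against 4.41%. In the average AKR1C1 rose by 1.10 ± 0.36 and AKR1C2 by 0.91 ± 0.28, which made 2 of 9, against 9.95%. Without the block, leaving out 1 library at a time moved the AKR1C1 average between 0.04 (without Huh7 SR 2) and 2.16 (without Huh7 SR 1). None of the 9 passed in the difference between the lines under the block, against 3.53% of all genes. The smallest adjusted p of any gene in these blocked comparisons was 0.471, from the average.

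Between the labelled lines themselves, averaged over WT and SR, 0 of the 9 genes passed, against 4.90% of all genes. TXNRD1 came nearest, with Huh7 above HepG2 by 0.71 ± 0.30. AKR1C1 stood at -1.65 ± 1.08, Huh7 minus HepG2, and NFE2L2 differed by 0.48 ± 0.35. The 3 libraries that stood apart enter both sides of this comparison, so it compares labels.

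The 5 libraries of like expression were chosen for their likeness, with earlier results known, so a narrower spread followed from the choice. With 1 residual degree of freedom, that spread came from HepG2 WT 1 and 2 alone, and the counts of genes passing below rest on it. HepG2 SR, Huh7 WT and Huh7 SR each had a lone library, assumed to vary as HepG2 WT did. The members' median was 0.86 in HepG2 and 0.81 in Huh7, where that of all genes was -0.006 and -0.105. For 28 other NRF2 targets, described below, it was 0.44 in HepG2 and -0.13 in Huh7. For 17 NRF2 regulators it was -0.16 and -0.73, so the members' medians were not shared by these lists. Single targets of the list also differed in Huh7, in both directions: GPX2 by 2.64 and AKR1C3 by 1.47, and SLC7A11 by -2.40 and GCLM by -1.20. In HepG2 4 of the 9 genes passed, all higher in SR, against 3.12% of all genes: NFE2L2 by 0.86 ± 0.24, TXNRD1 by 1.18 ± 0.25, AKR1C1 by 2.09 ± 0.28 and AKR1C2 by 1.44 ± 0.29. In Huh7 5 of 9 passed, against 11.7%. NQO1 (1.83 ± 0.43), AKR1C1 (1.36 ± 0.33) and AKR1C2 (1.43 ± 0.34) were higher in SR, and TXNRD1 (-1.37 ± 0.29) and SRXN1 (-1.78 ± 0.41) were lower. Averaged over the lines, 5 of 9 passed, all higher in SR, against 9.48%: NFE2L2 by 0.64, NQO1 by 1.34, AKR1C1 by 1.73, AKR1C2 by 1.43 and AKR1B10 by 1.59. No gene of the table reached an adjusted p under 0.05 in these fits (smallest 1, 0.395 and 0.464, limma). Hepatocyte markers moved in the same Huh7 comparison: 8 of 10 passed, all higher in Huh7 SR 2 than in Huh7 WT 2, with a median of 2.11, and their part in the members' differences was not tested.

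The SR libraries other than HepG2 SR 2 were also set against WT libraries of like expression, a comparison chosen after the values were seen and given with no test. These were HepG2 SR 1 minus the mean of HepG2 WT, Huh7 SR 1 minus Huh7 WT 1, and Huh7 SR 2 minus Huh7 WT 2. NQO1 differed by 0.85, 0.52 and 1.83 in that order, AKR1C1 by 2.09, 0.35 and 1.36, AKR1C2 by 1.44, 0.74 and 1.43, and AKR1B10 by 2.03, 1.39 and 1.15. These 4 reductases were higher in SR in all 3 differences, 4 of 9 members against 16.0% of all genes. The same was true of 6 of 10 hepatocyte markers. The AKR1B10 value of 1.39 compares 1.63 FPKM in Huh7 SR 1 with 0 in Huh7 WT 1, so its size depends on the 1 added to FPKM. AKR1C1 and AKR1C2 share part of their transcript sequence, so they do not count as independent members. TXNRD1 (1.18, 0.15 and -1.37) and SRXN1 (0.74, 0.44 and -1.78) were higher in the first and second and lower in the last. NFE2L2 (0.86, -0.09 and 0.43), KEAP1 (0.36, 0.19 and -0.43) and HMOX1 (-0.44, -0.58 and 0.81) differed in sign as well.

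**Figure D3:**
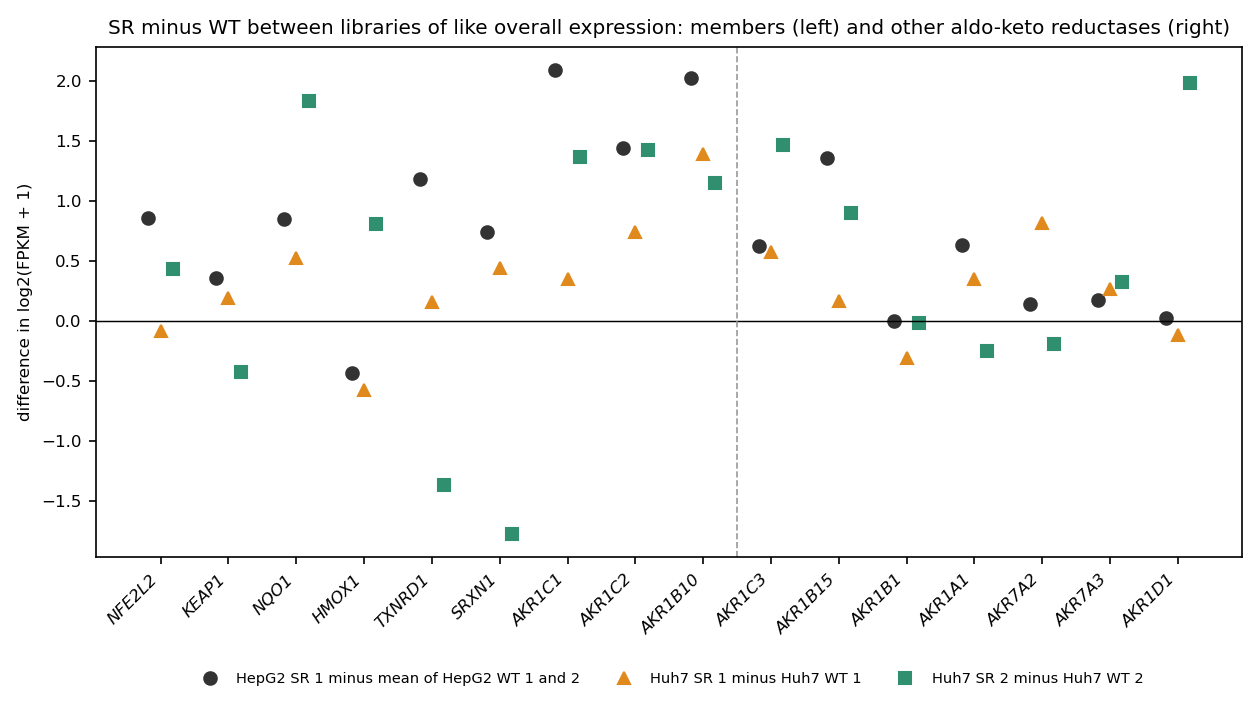
Difference in log2(FPKM + 1) on the vertical axis between SR and WT libraries of like overall expression, for the 9 genes and 7 other aldo-keto reductases on the horizontal axis. Each symbol is 1 of the 3 library comparisons. NQO1, AKR1C1, AKR1C2 and AKR1B10 lie above 0 in all 3, and TXNRD1 and SRXN1 fall to -1.37 and -1.78 in the Huh7 replicate 2 comparison.

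Of 18 NRF2 regulators, 17 passed the filter on low values. In Huh7 RBX1, the RING subunit of the CUL3 ligase, rose by 0.81 ± 0.32 (14.3 and 15.7 FPKM in WT, 24.4 and 29.8 in SR). NFE2L1, an NRF2-related factor that controls proteasome genes, fell by 0.72 ± 0.30 (94.3 and 81.6 in WT, 57.2 and 48.8 in SR). Both had adjusted p-values of 0.99996 from limma, and they made 2 of 17, against 1.87% of all genes, while no regulator passed in HepG2. RBX1 also passed in the average, 1 of 17 against 3.93% of all genes, at 0.70 ± 0.22 (adjusted p 0.998, limma). With 27.2 and 29.5 FPKM in HepG2 WT and 37.2 and 49.9 in HepG2 SR, its SR libraries lay above its WT libraries in both lines. With the replicate block NFE2L1 no longer passed (unadjusted p = 0.0510, limma), and MAFK, a small MAF partner of NRF2, did, at -0.85 ± 0.31 in HepG2 and -1.14 ± 0.31 in Huh7. MAFK was at 40.1 and 13.1 FPKM in HepG2 WT and 19.9 and 7.53 in HepG2 SR, and at 82.9 and 47.0 in Huh7 WT against 44.2 and 17.2 in Huh7 SR, lower in SR within each numbered pair. The block thus gave 1 of 17 regulators in HepG2, against 9.17% of all genes, and 2 of 17 in Huh7 (RBX1 and MAFK), against 4.41%. The median difference of the regulators was -0.13 in HepG2 and -0.43 in Huh7. CUL3 stayed between 11.7 and 19.7 FPKM, and BACH1, a repressor that competes with NRF2, between 8.21 and 18.6.

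Of 29 other NRF2 targets, 28 passed the filter, and 0 passed the thresholds in HepG2 and 0 in Huh7, with medians of 0.40 and 0.06. In the average 1 of 28 passed, against 3.93% of all genes: TXN, thioredoxin and the substrate of TXNRD1, rose by 0.65 ± 0.22 (adjusted p 0.998, limma). Its FPKM was 187 and 169 in HepG2 WT and 331 and 260 in HepG2 SR, and 192 and 148 in Huh7 WT against 248 and 257 in Huh7 SR, and all 4 SR libraries lay above all 4 WT libraries. SLC7A11, the cystine transporter that feeds glutathione synthesis, differed between the lines' SR effects by -2.36 ± 0.92, with its highest value, 26.5 FPKM, in Huh7 WT 2, the library in which TXNRD1 and SRXN1 were also highest. That difference made 1 of 28 targets past the thresholds, against 0.606% of all genes. Under the replicate block it no longer passed (unadjusted p = 0.05002, limma). The block brought 2 of 28 targets past the thresholds in HepG2, PIR at 0.90 ± 0.32 and the heme transporter SLC48A1 at -1.31 ± 0.32, against 9.17% of all genes. In Huh7 it brought 1 of 28, GCLM, the modifier subunit of glutamate cysteine ligase, at -0.96 ± 0.31, against 4.41%. These shares lie near or below those of all genes. In the 3 differences between libraries of like expression, 11 of 28 targets were higher in SR in each, against 16.0% of all genes. Among them were TXN, AKR1C3, GPX2, FTL and EPHX1, and 1 of 17 regulators, RBX1, was higher in each too. So were 6 of 10 hepatocyte markers and 4 of 11 antioxidant enzymes outside the NRF2 list. The count was 6 of 13 for heme breakdown and thioredoxin partners and 3 of 7 for further aldo-keto reductases, lists that share genes with the targets. A share above that of all genes was therefore not particular to the NRF2 targets.

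Some of these targets were far higher or lower in libraries that stood apart than in the rest. ME1, malic enzyme, was at 33.7 FPKM in HepG2 SR 2, while Huh7 WT 1 had 49.3 and Huh7 SR 1 had 42.4, and it was at most 0.0610 elsewhere. HTATIP2 was at 51.8, 47.2 and 54.3 in the same libraries and at most 0.135 elsewhere. ABCC3, a multidrug transporter, was at 0.876 in Huh7 WT 1 and 0.888 in Huh7 SR 1 and between 7.36 and 63.6 in the other libraries. GCLM was highest in Huh7 WT 1 at 93.9 and Huh7 SR 1 at 56.6, while HepG2 SR 2, at 18.6, lay within the range of the 5 libraries of like expression, 9.48 to 28.8.

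**Figure D4:**
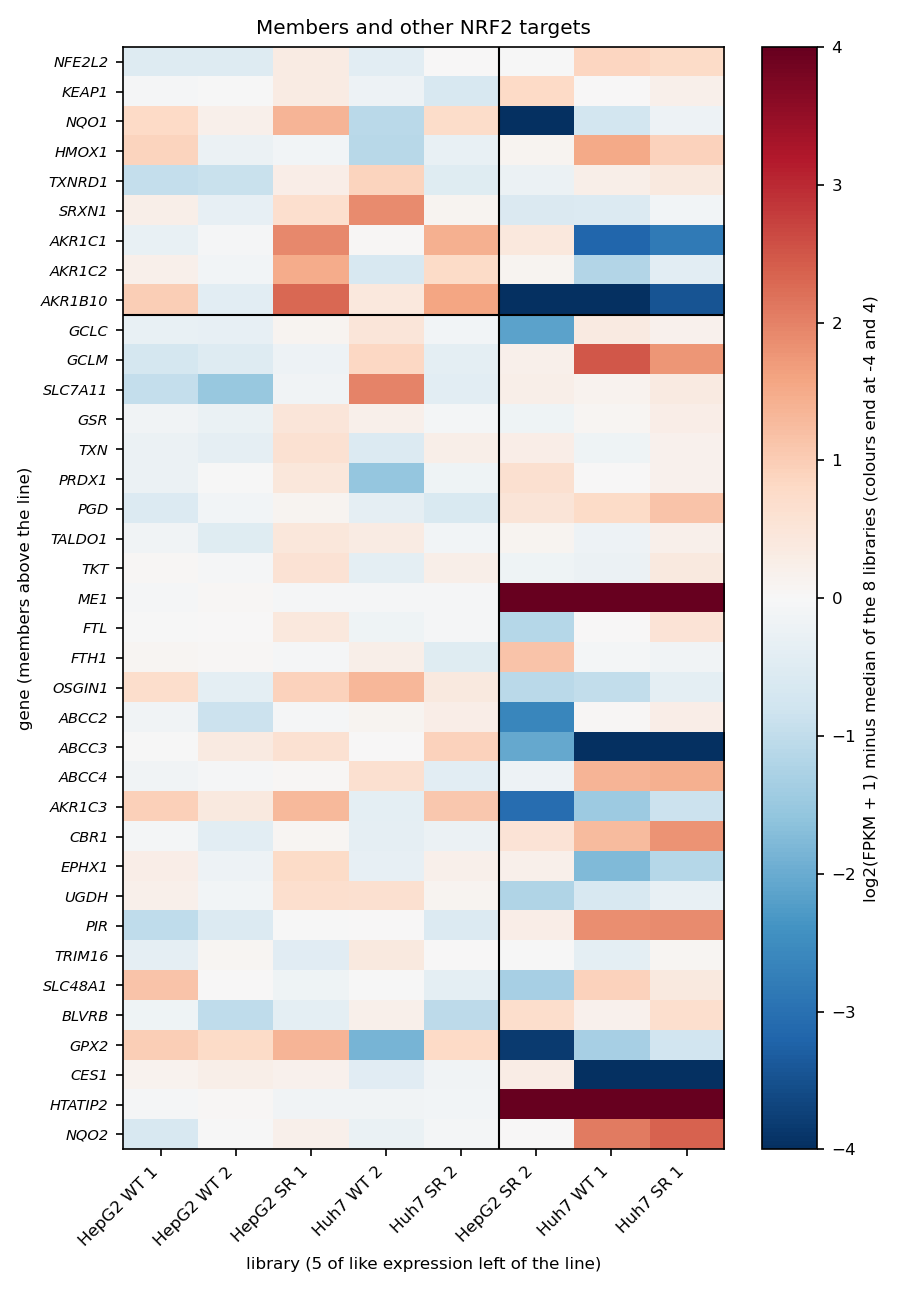
The 9 genes and 28 other NRF2 targets, 1 per row, in the 8 libraries, with the 5 of like expression left of the vertical line. Colour is log2(FPKM + 1) minus the gene's median over the libraries, red above and blue below, with colours ending at -4 and 4. NQO1 and GPX2 are lowest in HepG2 SR 2, AKR1B10 is low in all 3 libraries on the right, and ME1 and HTATIP2 are high in those 3.

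Among 9 further aldo-keto reductases 7 passed the filter and 0 passed the thresholds in either line with all 8 libraries. AKR1B15, the closest relative of AKR1B10, was at most 3.60 FPKM and, like AKR1B10, was listed at 0 in Huh7 WT 1. Of 13 genes of heme breakdown and thioredoxin partners, none but TXN passed in SR against WT with all 8 libraries and no replicate block. With the 5 libraries of like expression, PRDX1 was higher in SR by 1.36 in Huh7 and 0.96 in the average. With the block, the peroxiredoxins PRDX2 (0.70 ± 0.23) and PRDX3 (0.55 ± 0.22) also passed in the average, where 9.95% of all genes did. Of 12 antioxidant enzymes outside the NRF2 list 11 passed the filter. SOD2, the mitochondrial superoxide dismutase, was lower in Huh7 SR, at -0.98 ± 0.34 (80.2 and 114 FPKM in WT, 46.0 and 50.3 in SR). CAT, catalase, rose in the average by 0.73 ± 0.25. SOD2 was 1 of 11 in Huh7, against 1.87% of all genes, and CAT 1 of 11 in the average, against 3.93%. Neither SOD2 nor CAT passed after adjustment (adjusted p 0.99996 and 0.998, limma). With the block GLRX (-1.11 ± 0.35) and SESN1 (-1.02 ± 0.40) also passed in HepG2, where 9.17% of all genes did. SOD1 (0.60 ± 0.21) passed in the blocked average, where 9.95% did.

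The genes whose pattern was most like that of NFE2L2, by Pearson's r of log2(FPKM + 1) over the 8 libraries among 6409 genes with a mean FPKM of at least 10, were FUBP1 (r = 0.967), SEPTIN2 (r = 0.963) and AHCTF1 (r = 0.959). FUBP1 was at 16.1 and 15.8 FPKM in HepG2 WT and 22.5 and 20.7 in HepG2 SR, and 39.3 and 16.3 in Huh7 WT against 42.8 and 22.1 in Huh7 SR, with its highest values in the same 2 libraries as NFE2L2. For NQO1, the member with the widest range, they were RNF8 (r = 0.993), ATP6V0E2 (r = 0.985) and LGALS3BP (r = 0.969). LGALS3BP, at 0.237 FPKM in HepG2 SR 2 and 107 to 192 in the other libraries, and ATP6V0E2, at 0.769 there and 14.2 to 68.7 elsewhere, were, like NQO1, far lowest in that library. These correlations describe 8 libraries that fall into sets, and carry no test.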

How the data were processed

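The authors deposited 1 FPKM value per gene and library, without pooling. Per the labels, libraries were made with an NEBNext Ultra kit after oligo(dT) enrichment, and the submitters' processing notes name fastp 0.20.0 and GRCh38. The aligner, the counter and the annotation are not given in the sources used here. FPKM keeps no read totals, low values did not resolve into whole reads, and the depth is unknown, so no counting intervals are given. Libraries listed 12829 to 13386 genes at an FPKM of at least 1.

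On the scale log2(FPKM + 1), 1 linear model of the 4 group means was fitted over all 8 libraries (limma 3.58.1, R 4.3.3, moderated with an intensity trend), with Benjamini-Hochberg adjustment over 15173 genes and 4 residual degrees of freedom. Genes were called at the study's thresholds, an unadjusted p under 0.05 and a log2 change of 0.5. The study ran a count test, which FPKM do not allow. The fit was tested on simulated data with known changes and independent noise. That simulation held no sets of like libraries, so it cannot show how the fit behaves on libraries that fall into sets. Deviations of same-numbered libraries from their group means correlated at 0.125 in HepG2 and 0.796 in Huh7 (the labels give the numbers), so numbers were taken to pair libraries. Positions and overlaps came from GENCODE 29, which holds 58228 of the 63241 identifiers, and promoters from RefSeq. Python 3.11.15, pandas 2.3.3, NumPy 2.4.6, Biopython 1.88 and matplotlib 3.10.9 were used.

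The members, the gene lists and the set of 5 libraries were chosen with earlier results of these data known. Named genes were the 9 members, list genes called in either line, and the 3 genes most like NFE2L2 and most like the member with the widest range. Other list genes were named after their values were seen. A gene of the list of other NRF2 targets is not reported here and was left out of that list's counts. Alternatives are given in the closing section.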

Additional observations from a re-analysis of the deposited data

Results flagged for a closer look

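Over the 8 libraries, the lowest value of NQO1, in HepG2 SR 2, lay apart from the rest on the log2(FPKM + 1) scale: its gap to the next library was 0.694 of the whole range, above Dixon's critical value. Both ends of the range were examined for 9 genes, 18 in all, and this was the 1 that passed, where about 1 in 20 groups would by chance.

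The SR effect on TXNRD1 differed between the labelled lines by -1.54 (Huh7 minus HepG2, log2 scale). It passed the unadjusted threshold in limma (unadjusted p = 0.0386) and not after adjustment (adjusted p = 0.99981). SR was above WT in HepG2 in both libraries, and the Huh7 groups overlapped.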

How the results depend on the processing

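The numbers of members called depended on the libraries and the block. In HepG2 0 of 9 became 1 when each line was fitted alone, 1 with the replicate block and 4 with the 5 libraries of like expression. In Huh7 0 became 1 with the block and 5 with the 5 libraries, where the members' median rose from 0.17 to 0.81. The average went from 0 to 2 with the block and 5 with the 5 libraries. In the difference between the lines 1 became 0 with the block, under which TXNRD1 stayed at -1.54 (unadjusted p = 0.0538, limma), and 2 with the 5 libraries. Between the lines 0 became 1 with a pseudocount of 0.1, a filter at an FPKM of 0.1 or quantile normalization, and 2 with the 5 libraries. Leaving out 1 library at a time gave 0 to 1 in HepG2, 0 to 1 in Huh7, 0 to 2 in the average, 0 to 2 in the difference and 0 to 3 between the lines. The number of all 15173 genes passing moved as well. In HepG2 it was 325 in the main fit, 480 when each line was fitted alone and 1392 with the block. In Huh7 the block took it from 283 to 669, in the average from 596 to 1509 and in the difference from 92 to 535. It also moved in the fits that leave 1 library in a group. The counts of members alone therefore do not set the members apart from all genes. The cause of these shifts was not tested.

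With the 5 libraries, differences that were negative became positive for NQO1 in HepG2 (0.85) and in the average (1.34) and for AKR1B10 in HepG2 (2.03) and in the average (1.59). A pseudocount of 0.1 turned the AKR1B10 average to 0.013. Leaving out each library in turn changed the sign for several members. In HepG2, NQO1 ranged from -7.11 to 0.85, HMOX1 from -0.89 to 0.23, SRXN1 from -0.52 to 0.74 and AKR1B10 from -4.97 to 2.03. In Huh7, NFE2L2 ranged from -0.47 to 0.81, KEAP1 from -0.54 to 0.31, HMOX1 from -1.19 to 1.42, SRXN1 from -1.89 to 0.56, AKR1C1 from -1.26 to 2.97 and AKR1B10 from -1.37 to 3.92. In the average, NQO1 ranged from -2.97 to 1.01 and AKR1B10 from -1.85 to 1.65. In HepG2, NFE2L2, KEAP1, TXNRD1, AKR1C1 and AKR1C2 kept a positive sign under all 18 alternatives, as NQO1 and AKR1C2 did in Huh7. Many of the 18 could not change it. Another filter or threshold, no trend, a separate fit, the block or leaving out a library of the other line keeps a line's estimate. Where both SR libraries lay above both WT libraries, as for all these but AKR1C2 in HepG2, leaving out 1 library cannot turn the sign either. Their size moved: leaving out each library in turn gave 0.05 to 1.44 for AKR1C2 and 0.60 to 2.09 for AKR1C1 in HepG2, and 0.04 to 2.16 for AKR1C1 in the average. The replicate block changed no other member's call.

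Scaling to a common sum moved the share of higher calls among all genes called from 40.9% to 26.5% in HepG2, from 50.5% to 34.6% in Huh7 and from 48.3% to 30.6% in the average. With 2 libraries per group and an unknown depth, differences as large as 1 on the log2 scale were often within the spread between libraries.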
